A study of Mus musculus with 24 samples.

Results

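Intragenic H3K4me3 regions are places inside protein-coding genes, away from the annotated gene ends, where H3K4me3 peaks were called in group 3 innate lymphoid cells (ILC3s) of the mouse small intestine. They were found by merging the peaks of 12 H3K4me3 lists on the autosomes and the X chromosome. Merged regions with a peak in at least 3 lists were kept when they lay wholly inside a protein-coding gene and more than 3 kb from the start and end of every annotated gene. This rule gave 3215 regions in 2242 host genes, out of 22665 merged regions, of which 17622 had a peak in at least 3 lists. The other regions in at least 3 lists were 12701 within 3 kb of a gene start or end, here called gene end regions, 1441 outside genes, and 265 inside other kinds of gene. The regions were chosen by position and by the presence of peaks pooled over all libraries, so the positions and the number of libraries per region are given as descriptions.

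The study profiled H3K4me3 and the chromatin protein CFP1 by CUT&Tag, which sequences the DNA that an antibody-guided transposase cuts out of chromatin. The libraries came from 3 sorted ILC3 subsets, named CCR6+, NKp46+ and DN in the labels, and from 2 genotypes. KO cells came from mice with Cxxc1flox/flox alleles and a Cre allele, in which Cre recombines the floxed Cxxc1 gene that encodes CFP1. WT cells came from Cxxc1flox/flox mice, which carry the same floxed alleles without Cre. There were 12 groups of 2 libraries, 24 in all, each from 100000 cells. An age of 6 to 8 weeks is given for the mice, although the protocols also speak of aged and young animals and of a culture medium, so age and handling are not settled. The labels do not say whether replicates came from separate animals, so p-values cover only the spread between the samples at hand, and that spread may be technical. The peak lists hold no read over the floxed exons, and recombination of Cxxc1 was not checked here except through the CFP1 lists.

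H3K4me3, trimethylation of lysine 4 of histone H3, marks active and poised transcription start sites. CFP1 binds unmethylated CpG dinucleotides through its CXXC zinc finger and belongs to the SET1 methyltransferase complex, which deposits this mark. Many genes have internal promoters from which shorter transcripts begin, often within a CpG island, and enhancers inside genes can carry lower amounts of the same mark. ILC3s are tissue lymphocytes that make IL-22 and IL-17.

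Several libraries stood apart before any comparison. The H3K4me3 lists held 12838 to 15397 peaks in WT. In KO, CCR6+ replicate 1 and DN replicate 1 were short, at 11794 and 12446 peaks, while the other 4 held 16422 to 18127. The CFP1 lists held 4574 to 7983 peaks in WT and 714 to 1312 in 4 KO libraries, whereas KO NKp46+ replicate 2 and KO DN replicate 2 held 4891 and 8881. Sequencing depth is unknown, since the lists contain no read totals, so where a peak is missing, no more is known than that the caller listed none in that library. As a check of the labelled cell type, peaks within 1 kb of the start or end of 14 ILC3 defining genes were found for 10 to 11 genes in WT and 7 to 10 in KO libraries. Of 12 T cell markers 3 to 10 had such a peak in WT and 2 to 10 in KO, of 10 B cell markers 0 to 2 and 0 to 3, of 12 myeloid markers 0 to 4 and 1 to 6, of 10 ILC2 markers 3 to 5 and 2 to 4, of 12 epithelial markers 2 to 3 and 1 to 6, and of 10 stromal and endothelial markers 2 to 3 and 1 to 3. The part of other cells in the results was not tested. In bulk samples such as these, fewer cells with a mark and less mark per cell cannot be told apart.

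The clearest feature of these regions is that the ones present everywhere tended to sit on an internal transcript start rich in CpG. The 8 sequences that follow show this range. Each is the 300 b from 250 b before to 50 b after a RefSeq transcript start that lies inside an intragenic region, read from the GRCm38.p6 (mm10) promoter table on the strand of the gene, 5′ to 3′, in lower case with every CG dinucleotide in capitals. Runx1 and Runx3, transcription factors of lymphocyte development, and Stat5b, which carries cytokine signals to the nucleus, are shown as CpG-rich starts in genes of ILC3 regulation. The window of Runx1 is chr16:92697280-92697579 on the minus strand with 35 CpG. That of Runx3 is chr4:135152295-135152594 on the plus strand with 45 CpG. That of Stat5b is chr11:100850532-100850831 on the minus strand with 50 CpG.
Runx1: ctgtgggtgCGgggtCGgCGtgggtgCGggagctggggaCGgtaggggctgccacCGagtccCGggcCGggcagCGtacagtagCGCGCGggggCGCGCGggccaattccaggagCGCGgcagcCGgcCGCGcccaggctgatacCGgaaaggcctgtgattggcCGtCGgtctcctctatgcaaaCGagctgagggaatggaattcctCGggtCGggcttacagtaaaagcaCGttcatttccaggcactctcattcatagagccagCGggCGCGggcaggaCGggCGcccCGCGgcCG
Runx3: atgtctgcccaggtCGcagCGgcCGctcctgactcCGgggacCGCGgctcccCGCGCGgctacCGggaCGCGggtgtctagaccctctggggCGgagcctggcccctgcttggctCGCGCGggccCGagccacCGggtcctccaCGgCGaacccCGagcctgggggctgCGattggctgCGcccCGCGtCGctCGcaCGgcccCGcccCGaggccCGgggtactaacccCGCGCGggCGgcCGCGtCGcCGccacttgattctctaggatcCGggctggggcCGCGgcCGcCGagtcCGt
Stat5b: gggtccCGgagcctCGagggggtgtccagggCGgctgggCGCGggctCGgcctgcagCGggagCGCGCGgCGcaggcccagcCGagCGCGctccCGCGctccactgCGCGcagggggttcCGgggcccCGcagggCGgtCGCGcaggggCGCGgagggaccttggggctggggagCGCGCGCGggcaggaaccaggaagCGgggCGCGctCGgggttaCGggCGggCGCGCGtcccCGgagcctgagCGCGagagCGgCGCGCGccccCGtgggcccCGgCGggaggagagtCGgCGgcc

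Srsf11, which encodes a splicing factor, is shown because it had the largest difference between genotypes in the number of libraries with a CFP1 peak. Egf, which encodes epidermal growth factor, is shown for its rank in fold enrichment within the lists. Its median percentile was the highest among intragenic regions, with predicted host genes passed over. The Srsf11 window is chr3:158031699-158031998 on the minus strand with 25 CpG, and the Egf window is chr3:129725037-129725336 on the minus strand with 17 CpG. Both windows hold the letters CCGGAAGT of ETS factors and the letters GCGCATGCG of NRF1, on one strand or the other.
Srsf11: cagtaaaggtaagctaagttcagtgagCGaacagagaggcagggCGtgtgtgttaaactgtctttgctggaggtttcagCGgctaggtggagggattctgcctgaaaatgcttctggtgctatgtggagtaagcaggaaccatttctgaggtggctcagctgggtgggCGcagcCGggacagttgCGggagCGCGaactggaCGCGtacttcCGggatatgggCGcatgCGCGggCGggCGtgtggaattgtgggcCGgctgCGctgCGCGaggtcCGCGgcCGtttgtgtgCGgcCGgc
Egf: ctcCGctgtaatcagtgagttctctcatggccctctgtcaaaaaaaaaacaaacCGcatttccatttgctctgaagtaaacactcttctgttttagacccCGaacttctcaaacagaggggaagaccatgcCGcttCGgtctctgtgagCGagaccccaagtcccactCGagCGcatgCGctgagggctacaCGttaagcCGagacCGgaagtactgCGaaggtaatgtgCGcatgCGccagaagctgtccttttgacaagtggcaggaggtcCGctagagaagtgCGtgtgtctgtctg

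Prdm1 encodes the repressor Blimp-1, Il1r1 the IL-1 receptor and Cd160 a surface receptor of innate lymphocytes. They are shown as lymphocyte genes whose internal starts hold fewer CpG than those of Runx1, Runx3 and Stat5b. Their windows are chr10:44458699-44458998 on the minus strand with 20 CpG, chr1:40266336-40266635 on the plus strand with 14 CpG, and chr3:96814472-96814771 on the minus strand with 6 CpG.
Prdm1: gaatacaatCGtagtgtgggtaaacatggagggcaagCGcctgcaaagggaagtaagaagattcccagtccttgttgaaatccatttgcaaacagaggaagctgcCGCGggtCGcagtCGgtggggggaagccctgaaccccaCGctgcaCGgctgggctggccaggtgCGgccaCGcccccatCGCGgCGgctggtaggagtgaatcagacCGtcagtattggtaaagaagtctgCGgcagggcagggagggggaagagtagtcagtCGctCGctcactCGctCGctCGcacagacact
Il1r1: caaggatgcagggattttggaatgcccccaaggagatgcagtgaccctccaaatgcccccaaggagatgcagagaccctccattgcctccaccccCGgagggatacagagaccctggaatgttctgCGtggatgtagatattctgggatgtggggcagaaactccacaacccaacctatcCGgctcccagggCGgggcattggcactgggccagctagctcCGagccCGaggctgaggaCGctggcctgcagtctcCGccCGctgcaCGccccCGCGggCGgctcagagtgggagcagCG
Cd160: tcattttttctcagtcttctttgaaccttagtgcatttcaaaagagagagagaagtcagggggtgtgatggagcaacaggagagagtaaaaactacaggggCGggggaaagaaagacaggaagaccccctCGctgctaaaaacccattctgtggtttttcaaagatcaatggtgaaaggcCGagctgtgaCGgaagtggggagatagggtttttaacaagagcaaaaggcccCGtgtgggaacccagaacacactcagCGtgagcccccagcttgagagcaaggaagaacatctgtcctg

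The intragenic regions were narrower, weaker and less regular than those at gene ends. Their median covered width, the bases of a region under peaks in a library that had one, was 718 b against 1104 b at gene ends. Within each list the peaks were ranked by the authors' fold enrichment, and the median percentile was 22.8 for intragenic regions and 55.0 for gene end regions. Every WT library showed this order: the median percentile was 26.4 ± 0.89 (SD, n = 6 libraries) in intragenic and 58.7 ± 0.85 in gene end regions. Intergenic regions were close to the intragenic ones in WT, at 26.0 ± 2.42. Intragenic regions made up 13.6% ± 1.46 of a WT list. The merged regions themselves spanned 325 to 4152 b, with a median of 1103 b.

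Only 731 of the 3215 regions (22.7%) had a peak in all 12 libraries, whereas 9049 of 12701 gene end regions (71.2%) and 219 of 1441 intergenic regions (15.2%) did. At the other end, 1128 (35.1%) were in 3 to 5 libraries. The regions in all 12 libraries approached gene ends in size, with a median covered width of 1124 b against 1217.5 b for gene end regions in all 12, and a fold enrichment percentile of 54.9 against 66.9. At the threshold of the rule, 464 regions were in exactly 3 libraries (median covered width 538 b, percentile 12.6), and 635 just outside it were in 2 (513 b, percentile 12.3). On the distance side, 239 regions lay 3 to 4 kb from the nearest gene end (797 b, percentile 27.9), and 325 just outside lay 2 to 3 kb from it (813.5 b, percentile 26.6).

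The host genes were long, with a median of 83.3 kb over the regions, and 10.4% of the 21631 protein-coding genes held at least 1 region. The nearest gene end was a median of 12.3 kb away. Where the strand of the host was known, the median distance from the annotated gene start was 25.3 kb, and 1563 of 2563 regions (61.0%) lay nearer to the start than to the end of the host. A single region was found in 1645 hosts, 2 or more in 597, and 5 or more in 37. A few regions, 30 in all, lay inside more than 1 coding gene. Summits of 1 region differed between libraries by a median interquartile range of 107.5 b.

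Internal transcript starts accompanied the regions found in all libraries. The RefSeq promoter table held the hosts of 2563 regions, and 585 of these (22.8%) contained a listed transcript start. The share was 382 of 604 (63.2%) for regions in all 12 libraries, 43 of 176 (24.4%) for those in 11, 160 of 1783 (8.97%) for those in 3 to 10, and 14 of 358 (3.91%) for those in exactly 3. The counts by number of libraries thus show a step between 11 and 12 rather than an even slope. Since 12 is the highest number possible, it gathers all stronger regions, and the step cannot show whether they are a separate kind. Regions with a start had a median covered width of 1054 b and a fold enrichment percentile of 49.9, those without one 659 b and 19.98. Peak height differed too among regions in all 12 libraries, where the percentile was 62.9 with a start and 45.2 without.

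**Figure D1:**
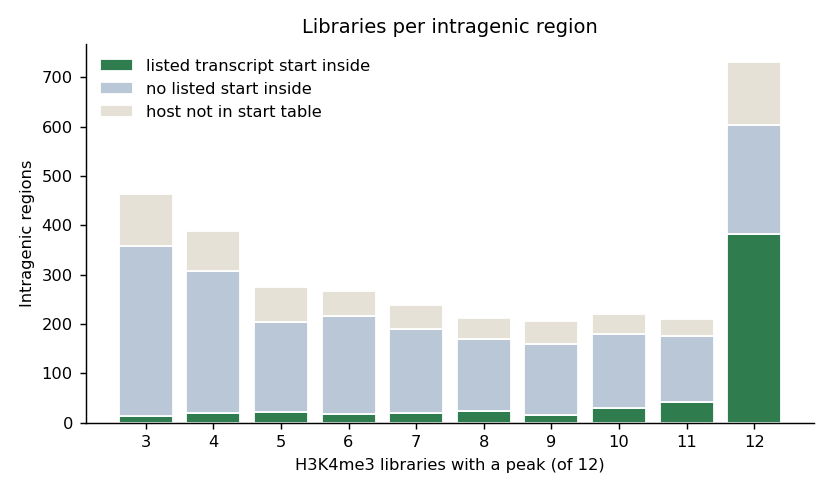
Number of intragenic regions (vertical axis) by the number of H3K4me3 libraries with a peak (horizontal axis, 3 to 12), with regions that hold a listed transcript start, regions that hold none and regions whose host is not in the start table stacked as 3 colours. The bar at 12 libraries holds 382 regions with a start, while no other bar holds more than 43.

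The summits lay just downstream of these starts. For the 494 regions with exactly 1 listed start, the median summit position in each of the 12 libraries was 104 to 214 b downstream of the start. Between 74.0% and 86.3% of the summits of a library were downstream, and 87.2% to 93.5% lay within 500 b on either side. Internal starts took no part in the rule that chose the regions.

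Most internal starts lay in no listed H3K4me3 region, and CpG content differed between these and the starts inside a region. Of 2455 RefSeq starts more than 3 kb inside coding genes, in 1852 genes, 697 (28.4%) lay in an intragenic region, 819 (33.4%) in any merged region and 1636 in none. The 300 b windows held a median of 20 CpG at 471 starts in regions present in all 12 libraries, 10 at 226 starts in regions present in 3 to 11 libraries, and 4 at the 1636 starts without a region. For comparison, all 32619 promoters of the table had a median of 7. The observed over expected CpG ratio was at least 0.6 at 72.4%, 34.5% and 7.89% of the starts in the same 3 sets, and at 36.0% of all promoters. Neighbouring starts of a gene can share a window, so these starts are not independent, and no test was made.

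**Figure D2:**
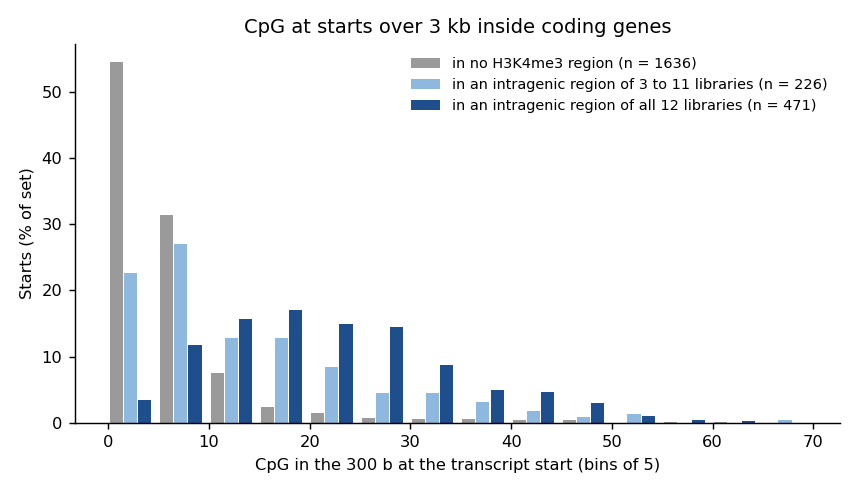
Share of internal transcript starts (vertical axis, percent of each set) by the number of CpG in the 300 b at the start (horizontal axis, bins of 5), for starts in no H3K4me3 region (n = 1636), in an intragenic region of 3 to 11 libraries (n = 226) and in one of all 12 libraries (n = 471). Most starts without a region lie in the lowest bins (median 4), and those in regions of all 12 libraries are spread over higher bins (median 20).

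Short motifs were counted on both strands of the same 300 b windows. CCGGAAGT, the core of ETS factors, was in 6.03% of the 697 starts inside an intragenic region. It was in 0.489% of the 1636 starts in no H3K4me3 region and 3.91% of all promoters. CCCCGCCC, bound by SP and KLF factors, was in 32.7%, 7.89% and 17.7%, and the NRF1 motif GCGCATGCG in 2.15%, 0.0611% and 1.75%. All 3 contain CG and so also count CpG content. Motifs without CG went the other way: TATAAA, the TATA box, was in 5.60%, 16.0% and 13.7%, and TGTGGTT, a RUNX motif, in 3.73%, 6.78% and 5.29%. CCAAT was in 31.6%, 37.2% and 37.6%, and the cyclic AMP element TGACGTCA in 2.296%, 0.978% and 1.80%. The YY1 motif AAGATGGCG was in 2.15%, 0% and 1.404%, and it and the cyclic AMP element also contain CG. A match shows only that these letters are present.

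The most strongly enriched regions were narrow and present everywhere. With predicted host genes passed over, Egf led with a median percentile of 99.9. It was followed by Dhcr7 (99.8), an enzyme of cholesterol synthesis, and Rpp40 (99.5), a subunit of ribonuclease P. Slf2, Aars2 (a mitochondrial alanyl-tRNA synthetase), Arid1b (a chromatin remodelling subunit), Cdkl4 and Hint3 ranked between 98.8 and 99.5. All 8 were present in all 12 libraries, and 5 of them (Egf, Dhcr7, Rpp40, Aars2 and Hint3) contained a listed start. Their covered widths were moderate, 399.5 b for Aars2 to 1012 b for Hint3.

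The widest regions were of another kind. Ubtf, which encodes an activator of ribosomal RNA genes, had a region of 3555 b median covered width with 5 listed starts, at percentile 14.8. Bcor (a corepressor), Ptch1 (the Hedgehog receptor), P2rx7 (an ATP-gated channel), Kdm6b (a demethylase of H3K27), Nr4a2 (a nuclear receptor), Fyb (an adaptor of lymphocyte signalling) and Stk17b followed with 2903 to 3484 b. These regions ranked only between percentiles 5.58 and 27.4 in fold enrichment. At Ubtf the covered width ran from 2970 b to 3720 b in WT with a median of 3581 b, and from 1882 b to 3685 b in KO with a median of 3375.5 b. The groups overlapped.

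The number of intragenic regions with a peak varied more between libraries than between genotypes. For WT replicates 1 and 2 it was 2101 and 2064 (CCR6+), 1384 and 2331 (NKp46+), then 1721 and 2214 (DN). For KO replicates 1 and 2 it was 1000 and 2704 (CCR6+), 2391 and 2814 (NKp46+), then 1224 and 2498 (DN). The 2 lowest KO values belong to the short lists, and the 4 other KO values all lie above the highest WT value of 2331. The mean was 1969 ± 352 (SD, n = 6) in WT and 2105 ± 787 in KO. As a share of all 3215, this was 61.2% ± 10.96 in WT and 65.5% ± 24.5 in KO, while gene end regions were at 87.0% ± 4.32 and 89.3% ± 8.65.

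The KO minus WT difference of 136 regions was within this spread and depended on which libraries entered. It was −197 among replicate 1 libraries and 469 among replicate 2 libraries. Leaving out single libraries gave −62 to 356, with the sign turned without KO NKp46+ replicate 2 (−62) or KO CCR6+ replicate 2 (−33.3) and the value raised without KO CCR6+ replicate 1 (356) or KO DN replicate 1 (311). It fell to 17.5 without WT NKp46+ replicate 1, and was 84.2 without WT DN replicate 1, 44.5 without KO NKp46+ replicate 1, 36.9 without KO DN replicate 2 and 207 without WT NKp46+ replicate 2. Without both short KO lists it was 630. No direction of change can be read from these counts.

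**Figure D3:**
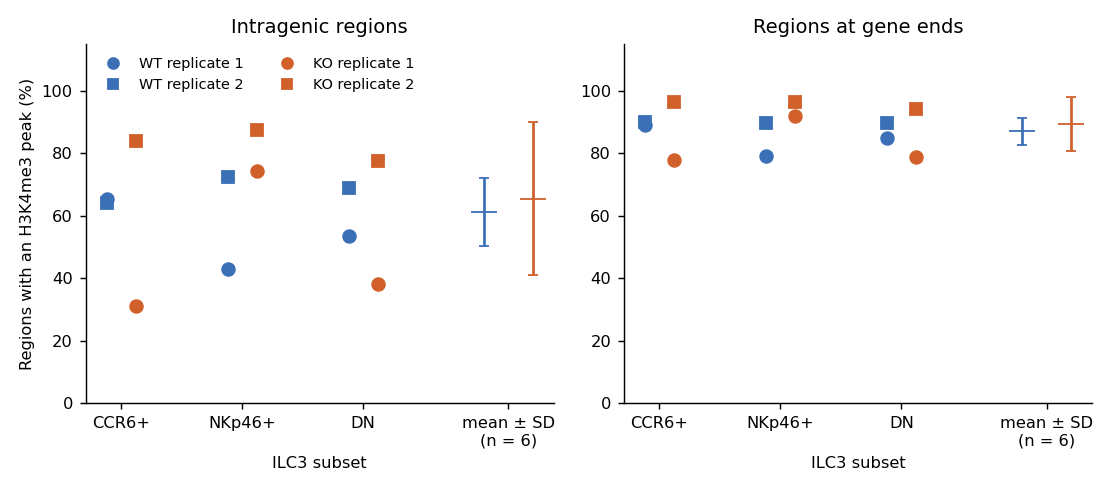
Percent of intragenic regions (left) and of gene end regions (right) with an H3K4me3 peak in each library, by subset on the horizontal axis, with circles for replicate 1, squares for replicate 2, and the mean ± SD of 6 libraries per genotype at the right of each panel. Intragenic shares range from 31.1% to 87.5% and gene end shares from 77.7% to 96.5%, with KO CCR6+ replicate 1 lowest in both.

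Region by region, the presence of peaks was compared by a two-sided Fisher's exact test on the number of libraries, adjusted by the Benjamini-Hochberg method over the 8312 merged regions found in 2 to 10 of 12 libraries. Of these, 2274 were intragenic. No intragenic region was called higher or lower in KO, and 0% of all tested regions was, with a smallest adjusted p of 0.998 by Fisher's exact test. With 6 libraries against 6 the smallest p is 0.00216, and 360 regions would have to reach it for any to be called, so this design could not call a single region. At an unadjusted p under 0.05, 8 intragenic regions (0.352%) were higher in KO against a background of 0.577%, and 16 (0.704%) lower against 0.722%. Without both short KO lists, 7142 regions in 2 to 8 of 10 libraries were tested, 1908 of them intragenic. At an unadjusted p under 0.05, 330 intragenic regions (17.3%) were then higher in KO against a background of 15.9%, and 18 (0.943%) lower against 0.896%. None was called after adjustment (0% of tested; smallest adjusted p 0.108 by Fisher's exact test).

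By the rule of a difference of 4 or more libraries, which carries no p, 108 intragenic regions (3.36%) were in more KO libraries against 2.3% of all regions in at least 3 libraries, and 63 (1.96%) were in fewer against 1.08%. Of the 108, 75 (69.4%) were in exactly the 4 KO libraries with long lists and in no WT library, as were 265 of 406 such regions (65.3%) over all classes. Of the 63, 61 (96.8%) were absent from both KO libraries with short lists, as were 186 of 190 (97.9%) over all classes. Any difference in the KO direction was seen at 1177 intragenic regions (36.6%; all regions 21.1%), the opposite at 897 (27.9%; 15.3%), and 1141 (35.5%; 63.6%) were equal. Fewer intragenic than other regions are in all 12 libraries, which are equal by construction.

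Among the regions with the largest genotype difference, 4 were in all 6 WT and no KO library: Hcn4 (a pacemaker channel gene), Sdccag8 (a centrosomal protein), Rhobtb1 and Smad3 (a transducer of TGF-β signals). Hcn4, at chr9:58858721-58860121, was covered over 469 b to 1270 b in WT with a median of 899 b, and no peak was listed in any KO library (Fisher's exact p = 0.00216, adjusted p = 0.998). Smad3, at chr9:63726355-63727268, was covered over 289 b to 863 b in WT, with a median of 667.5 b. When only peaks of fold enrichment of 5 or more were used, the difference shrank to 3 libraries at Sdccag8, 2 at Smad3 and 1 at Rhobtb1. Cep57l1 and Tns4, the gene of tensin 4, were in 6 WT and 1 KO libraries.

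Tns4, at chr11:99073549-99075686, was one of the wide regions that were nearly missing from KO. Its covered width was 1401 b to 1971 b in the 6 WT libraries, with a median of 1905.5 b, and 544 b in KO NKp46+ replicate 1 alone. The genotypes did not overlap. The exact p was 0.0152, which did not pass the adjustment over all regions (adjusted p = 0.998).

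In the opposite direction 1 region, in Xpr1, the gene of a phosphate exporter, was in all 6 KO and no WT library. It lies at chr1:155383783-155384603, and in KO it was covered over 259 b to 806 b with a median of 535.5 b. Both short KO lists contained it. Prkca (protein kinase C alpha), Efr3b and Per3 (a circadian clock gene) were in 6 KO and 1 WT libraries, and a region of Dnmt3a, a DNA methyltransferase gene, at chr12:3870896-3871518, and Unc5a, a netrin receptor gene, in 5 KO and no WT libraries. The exact p was 0.00216 for Xpr1 and 0.0152 for the other 5, with an adjusted p of 0.998 throughout.

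The 3 subsets gave few intragenic regions of their own. No region was called in any subset after adjustment by the same Fisher's exact test, 0% of the 8312 tested, with smallest adjusted p-values of 1 for CCR6+, 1 for NKp46+ and 0.966 for DN, although a call would have taken 336 regions at the smallest p of 0.00202. NKp46+ libraries were higher at 49 intragenic regions before adjustment (2.15% of 2274 with p under 0.05; background 1.02%) and lower at 3 (background 0.168%). DN libraries were higher at 29 (1.275%; background 0.854%) and lower at 3 (background 0.108%). CCR6+ libraries were higher at 21 (0.923%; background 0.686%) and lower at 4 (background 0.18%). Of the 4 NKp46+ lists 2 are among the longest and none is a short KO list, while CCR6+ and DN each hold 1 short list.

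Regions in all 4 libraries of a subset and at most 1 of the 8 others, a count made after seeing the values, numbered 14 for NKp46+ (0.435%; background 0.142%), 7 for DN (0.218%; 0.108%) and 2 for CCR6+ (0.0622%; 0.0624%). Regions in all 12 libraries cannot meet this rule. They make up 10040 of the 17622 regions of the background but only 731 of the 3215 intragenic ones. The shares are therefore not on a like base, and no intragenic excess can be read from them. For NKp46+ the named regions in all 4 of its libraries and none of the others were in Sec16b, Tmtc2, Ttll1 (a tubulin glutamylase) and Slc25a33 (a mitochondrial carrier). For DN they were in Znrf1 (a ubiquitin ligase) and Maml2 (a Notch coactivator), with Bicral and Neu3 (a sialidase) in all 4 DN and 1 other library. For CCR6+ they were Syk, the gene of a kinase of immune receptor signalling, and Wdfy4, both in all 4 CCR6+ and 1 other library, Lifr (4 and 2) and Chchd6 (3 and 0).

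Regions missing from 1 subset and present in at least 7 of the 8 other libraries numbered 3 for CCR6+ (background 0.0454%), 1 for NKp46+ (0.0397%) and 3 for DN (0.034%). This background too includes the regions in all 12 libraries, which cannot meet the rule. Mgat5, a glycosyltransferase gene, Parp9 and Pisd were in no DN library and 7 of 8 others. E2f2, a cell cycle transcription factor gene, was in no NKp46+ library and 7 others, and Mfsd2a in none and 6. Each of these regions had equal or nearly equal numbers of WT and KO libraries.

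Replicate 1 and replicate 2 libraries were compared in the same way. At an unadjusted p under 0.05, 123 (5.41% of 2274; background 4.09%) were in more replicate 2 than replicate 1 libraries and 1 in fewer (background 0.0602%). None passed the adjustment (smallest adjusted p 0.305 by Fisher's exact test; 0% of tested regions called). In all 6 replicate 2 and no replicate 1 library there were 20 (0.622%; background 0.329%), and the reverse did not occur (background 0.00567%). The background of these last counts includes the regions in all 12 libraries, which are rarer among intragenic regions and cannot meet the rule. The labels do not say what the replicate number stands for, but the names of the deposited lists share 1 date-like code among all replicate 1 libraries of an antibody and another among all replicate 2 libraries, for both genotypes.

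CFP1, which the rule did not use, occupied fewer intragenic than gene end regions. Peaks of the 6 WT CFP1 libraries overlapped 9.39%, 7.62% and 7.31% of the intragenic regions in CCR6+, NKp46+ and DN replicate 1, and 26.4%, 19.7% and 28.8% in replicate 2. All 3 replicate 2 values lie above the replicate 1 values. The WT mean was 16.5% ± 9.72 (SD, n = 6), against 35.2% ± 3.93 at gene ends, where the 2 replicates were alike at 34.3% and 36.0%. Intergenic regions were close to the intragenic ones, at 15.4% ± 10.6 in WT, with means of 5.99% in replicate 1 and 24.7% in replicate 2. The low share and the replicate difference were thus not particular to regions inside genes. In every WT library the intragenic share was below the gene end share. CFP1 was found in all 6 WT libraries at 100 intragenic regions (3.11%) and at 17.4% of gene end regions.

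In KO the intragenic share was 1.65%, 1.65% and 1.71% in CCR6+, NKp46+ and DN replicate 1, and 4.60%, 19.9% and 37.1% in replicate 2. The last value is above every WT library, and both high values belong to the long KO lists named above. The KO mean was 11.1% ± 14.6 (SD, n = 6), so the spread exceeded the difference, which was −5.42 percentage points. It was −6.44 points among replicate 1 libraries, where the genotypes did not overlap, and −4.40 among replicate 2 libraries, where they did. Leaving out single libraries gave −10.6 points without KO DN replicate 2 to −2.96 without WT DN replicate 2. The difference was −3.45 without WT CCR6+ replicate 2, and −3.52 to −3.54 when 1 KO replicate 1 library at a time was left out. Without both long KO lists it was −14.1 points.

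**Figure D4:**
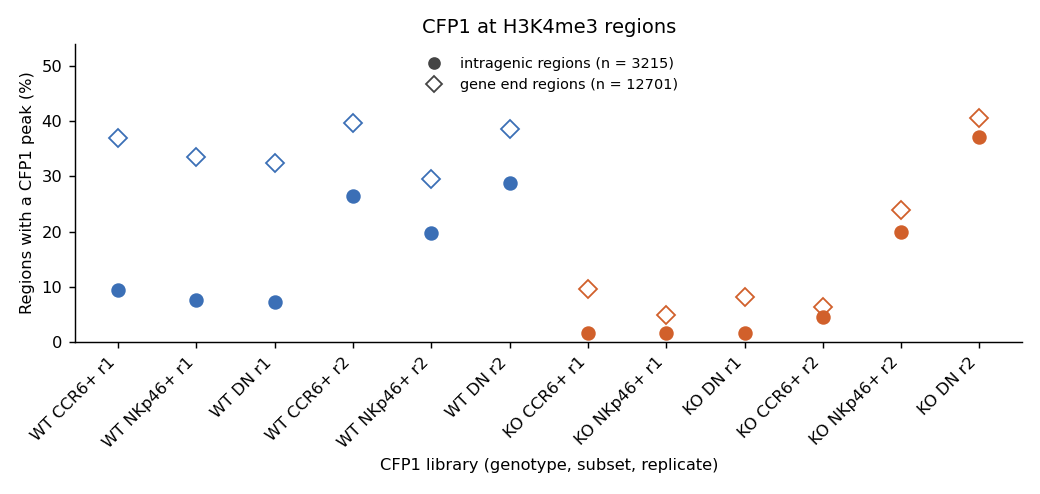
Percent of intragenic regions (filled circles, n = 3215) and of gene end regions (open diamonds, n = 12701) overlapped by a CFP1 peak in each of the 12 CFP1 libraries, with genotype, subset and replicate (r1, r2) on the horizontal axis. The gap between both kinds of region is wide in WT replicate 1 and narrower in WT replicate 2, and KO DN r2 reaches 37.1% at intragenic regions.

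The replicate difference in CFP1 lay in regions without a listed start. Regions with a start held CFP1 at 24.96% in WT replicate 1 and 27.3% in WT replicate 2 (means of 3 libraries), while those without one held it at 3.71% and 24.4%. Among regions in all 12 H3K4me3 libraries the values were 37.9% and 39.0% with a start, and 16.8% and 42.2% without. In KO replicate 1 the shares were 5.87% and 0.438% with and without a start, and in KO replicate 2, whose 3 libraries differ widely, 18.2% and 20.8%. CFP1 in all 3 WT replicate 2 libraries and no WT replicate 1 library was seen at 234 intragenic regions (7.28%) and 300 gene end regions (2.36%), and the reverse at 6 intragenic regions. Whether the extra replicate 2 peaks mark CFP1 binding was not tested.

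CFP1 at internal starts went with CpG. The 300 b windows held a median of 13 CpG at 387 starts in intragenic regions without WT CFP1, 19 at 146 starts with CFP1 in 1 to 3 WT libraries, and 25 at 164 starts with CFP1 in 4 to 6. The observed over expected ratio was at least 0.6 at 48.1%, 61.0% and 87.8% of these starts. The starts of Srsf11 (25 CpG, 6 WT libraries with CFP1) and Egf (17 CpG, none) printed above stand for the ends of this range. Runx3 and Stat5b, with 45 and 50 CpG, had CFP1 in 5 and 2 WT libraries, so single genes do not follow it closely.

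Per region, the presence of CFP1 in KO and WT was compared by the same Fisher's exact test over 7864 merged H3K4me3 regions with CFP1 in 2 to 10 of 12 libraries, 1078 of them intragenic. The smallest adjusted p was 0.279, and none was called (0% of tested). Before adjustment, with p under 0.05, 16 intragenic regions (1.48%) were lower in KO against a background of 5.43%, and 0 were higher (background 0%). Without both long KO lists, an alternative added after seeing the data, 6879 regions in 2 to 8 of 10 libraries were tested and 745 (10.8%) were called, all lower in KO. Of 825 intragenic regions tested, 29 (3.52%) were called. The outcome of this test therefore rests on KO NKp46+ replicate 2 and KO DN replicate 2.

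The largest CFP1 difference was at Srsf11, with CFP1 in 6 WT and no KO libraries (Fisher's exact p = 0.00216, adjusted p = 0.279). Its H3K4me3 was in all 12 libraries, covering 768 b to 1156 b in WT with a median of 1044 b and 660 b to 1297 b in KO with a median of 1012 b. These ranges overlapped. Smim10l1 had CFP1 in 5 WT and no KO libraries, and Urgcp, Senp7 (a SUMO protease) and Acer3 (a ceramidase) in 6 and 1. All 4 also kept H3K4me3 in all 12 libraries. At Hdac4 (a histone deacetylase gene), chr1:92180200-92181138, and at Bach2 (a transcriptional repressor of lymphocytes) CFP1 was in all 6 WT and all 6 KO libraries. Cops3, Slf2 and Prdm2 had it in 6 WT and 4 KO libraries, and Sys1 in 6 and 2.

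The covered width of H3K4me3 was compared for the 10040 regions with a peak in all 12 libraries by limma on log2 width with subset as a covariate. No region was called narrower or wider (0% of tested), and the smallest adjusted p among the 731 intragenic regions was 1.00. At an unadjusted limma p under 0.05, 21 of the 731 intragenic regions were narrower in KO, beside 178 of all 10040 (1.77%). Wider in KO were 1 of the 731 and 7 of all 10040 (0.0697%). The median log2 difference, KO minus WT, was −0.09 over intragenic regions and −0.07 over all, and 76.5% and 75.9% of them were negative. These medians turned to 0.15 and 0.11 without both short KO lists, and to 0.02 and 0.01 without KO CCR6+ replicate 1. The main model left out the replicate number, and the result depended on this. A replicate block gave 12 calls, all narrower in KO and none of them intragenic. With this block 1262 of all 10040 regions had an unadjusted limma p under 0.05. The smallest adjusted p among the 731 intragenic regions was then 0.0639 by limma. Centring each library on its median gave 20 calls, with Espn narrower (log2 −0.48, SE 0.08, adjusted p = 0.0432 by limma) and Efcab8 wider (log2 0.44, SE 0.07, adjusted p = 0.0464) among the intragenic regions.

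The internal start of Runx3 was among the regions with the smallest unadjusted p. Its covered width was 2485 b and 2280 b in WT CCR6+ replicates 1 and 2, 1511 b and 2940 b in NKp46+, and 2386 b and 2178 b in DN. In KO it was 1198 b and 1479 b, 1304 b and 1358 b, and 1833 b and 1756 b. The genotypes overlapped only through WT NKp46+ replicate 1. The log2 difference was −0.62 (SE 0.16; adjusted p = 1.00 by limma). With a replicate block the adjusted p was 0.148 by limma. At Runx1 the widths, 1550 b to 2040 b in WT and 1209 b to 2015 b in KO, overlapped more.

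The largest narrowing by size was at Adcy7 (adenylate cyclase 7; log2 −0.93, SE 0.69), Gcnt1 (a glycosyltransferase of mucin-type glycans; −0.91, SE 0.27), Osbpl5 (a lipid transfer protein; −0.83, SE 0.30) and Lmna (lamin A/C; −0.82, SE 0.33). Gcnt1 covered 993 b to 2191 b in WT with a median of 1805.5 b and 454 b to 1161 b in KO with a median of 991 b. For Lmna the ranges were 962 b to 1811 b and 361 b to 1209 b. Both pairs of ranges overlapped, and none of these 4 passed the adjustment by limma (adjusted p = 1.00). With a replicate block the limma adjusted p was 0.0950 for Gcnt1, 0.142 for Osbpl5, 0.199 for Lmna and 0.402 for Adcy7. Centring each library gave 0.0589 for Gcnt1 by limma. The widest in KO were the first region of Dnmt3a (log2 0.48, SE 0.31) and the third of Capg (0.40, SE 0.20), an actin capping protein gene.

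Genes that define ILC3s had intragenic regions in fewer KO than WT libraries more often than the reverse. Of 14 such genes 7 (50.0%) held 12 regions, where 10.4% of all coding genes and 13.9% of those longer than 6 kb were hosts. Of the 12 regions 10 were in fewer KO libraries, 1 in more and 1 in equal numbers. None differed by 4 or more libraries or reached an unadjusted p under 0.05. Over all 3215 regions 897 were lower, 1177 higher and 1141 equal. Without both short KO lists, comparing shares of libraries, the counts were 7 lower, 4 higher and 1 equal for these 12, beside 437, 1740 and 1038 for all. The gene list was drawn up with results of these data in view, so the counts are a description.

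Il1r1, whose internal start was printed above, held the clearest example. Its region at chr1:40266264-40269065 was covered over 2558 b and 2771 b in WT CCR6+ replicates 1 and 2, 1942 b and 2629 b in NKp46+, and 2208 b and 2727 b in DN. In KO it had no peak in replicate 1 of any subset, and 1237 b, 668 b and 645 b in replicate 2 of CCR6+, NKp46+ and DN. The genotypes did not overlap in width, and by presence the exact p was 0.182 for 6 WT and 3 KO libraries. The peaks were low, at a median percentile of 12.98. When only peaks of fold enrichment of 5 or more were used, the region was in 1 more KO than WT library.

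Kit, a receptor of lymphoid progenitors and ILC3s, and Tcf7, a transcription factor of their development, each had a region in 6 WT and 4 KO libraries, while the Gata3 region was in 4 of each. At Kit the second region covered 369 b to 2206 b in WT and 650 b to 2154 b in the 4 KO libraries with a peak. The KO libraries without a Kit peak were CCR6+ replicate 1 and DN replicate 1, which are the short lists. For Tcf7 they were both KO CCR6+ libraries, of which replicate 1 is a short list.

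Of 35 transcription factor genes of ILC3s, 29 (82.9%, beside 10.4% of all coding genes and 13.9% of those longer than 6 kb) were hosts. This list and those that follow were also drawn up with results of these data in view. Gene length beyond 6 kb and expression were not matched, so the host shares are descriptions and not tests of enrichment. The 29 genes held 75 regions, 34 in fewer, 23 in more and 18 in equal numbers of KO libraries. The split became 20, 37 and 18 without both short KO lists. In total 10 regions were in all 12 libraries, in Prdm1, Stat5b, Elf1, Runx1, Nfatc1, Bach2, Runx3, Foxp1, Ets1 and Rora. In addition 3 were in fewer KO libraries by 4 or more and are named here after their values were seen: Ikzf1 and Zbtb16, with 6 WT and 2 KO libraries each, and Ets1, with 5 and 0 at its region of 451 b median covered width.

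Of 36 cytokine and receptor genes 9 were hosts, also a larger share than the 10.4% of all coding genes, with 15 regions, of which 10 were in fewer, 3 in more and 2 in equal numbers of KO libraries (7, 6 and 2 without both short lists). Il2rb, the receptor chain for IL-2 and IL-15, was the only 1 in all 12 libraries. Of 36 lymphocyte signalling genes 26 (72.2%) were hosts, with 52 regions, 12 of them in all 12 libraries. In fewer, more and equal numbers of KO libraries were 12, 19 and 21, and 1, 30 and 21 without both short lists. Stim1, the calcium sensor of the endoplasmic reticulum, had CFP1 in 6 WT and 3 KO libraries there, and Camk4, a calcium-dependent kinase, in 6 and 2. Pik3r1, Arhgef3, Prkcq and Rasa3 were also in all 12 libraries.

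Chromatin regulators gave 20 hosts of 40 (50.0%) and 39 regions, 9 in all 12 libraries, among them Dnmt1, Kdm2a, Kdm2b, Hdac4, Arid1b and both Dnmt3a regions near its start. In fewer, more and equal numbers of KO libraries were 10, 17 and 12 (2, 23 and 14 without both short lists), and 2 differed by 4 or more, both higher in KO, in Dnmt3a and Phf21a (0 WT and 4 KO libraries, named after its values were seen). Of 20 NKp46+ and type 1 genes 7 (35.0%) held 8 regions, 6 in more KO libraries and 2 equal, also without both short lists. Cd160 and Il2rb were in all 12, while Klrc1, Klrd1 and Klre1, natural killer receptor genes of 1 cluster, and Tbx21, the gene of T-bet, were in 5 to 7. Of 22 adhesion and homing genes 6 held 7 regions (3 fewer, 1 more and 3 equal, and 1, 4 and 2 without both short lists), with only Cd226 in all 12 libraries, and of 14 CCR6+ genes 2 held 2 regions (Cntn1 and Cxcr5, each in 3 libraries).

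Marker genes of other cells were hosts about as often as all coding genes, 7 of 66 (10.6% beside 10.4%). T cell markers gave 2 hosts of 12 and 4 regions, in Icos and Cd247, which ILC3s can also express. Blk, a kinase gene used as a B cell marker, held 3 regions in 3 to 5 libraries, all in fewer KO libraries. Myeloid markers gave Spi1, ILC2 markers Hpgds, stromal and endothelial markers Pecam1 and Pdgfra, and epithelial markers none of 12. Very long genes of neurons and muscle gave 2 hosts of 20, Nrxn3 and Dmd, in 6 and 4 libraries.

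A few genes held many regions. Maml3, a Notch coactivator gene of 418 kb, had 9, of which 2 were in all 12 libraries. Summed over its regions there were 17 peaks in WT and 39 in KO libraries, and 3 of the 9 were in 4 KO and no WT libraries. Foxp1, a transcription factor gene of 597 kb, had 8 regions with 20 and 30 peaks, Abr 7 with 21 and 28, and Prkce, the gene of protein kinase C epsilon, 7 with 16 and 28. Ppp1r16b, which has as many regions and is named after its values were seen, had 7 with 23 and 22. Rora, a nuclear receptor gene, went the other way within 735 kb, with 36 peaks in WT and 25 in KO over 7 regions, and none of its regions was in more KO than WT libraries. With fold enrichment of 5 or more, the sum over its 7 regions turned from −11 to 9, KO minus WT, and 3 of them were in more KO libraries. None of the regions in Maml3, Foxp1, Abr, Prkce and Rora had an unadjusted p under 0.05 by Fisher's exact test.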

How the data were processed

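H3K4me3 and CFP1 were measured by CUT&Tag in 24 libraries of sorted mouse ILC3s, grouped by the genotype, subset and antibody in the sample titles. Reads were processed on mm10 with MACS2 2.2.7.1, Bowtie2 2.3.5.1, fastp 0.19.7, ChIPseeker 1.28.3 and Picard, per the submitters' processing notes. Settings, control libraries and duplicate handling were not given in the sources used here. For each library the authors deposited 1 peak list, with positions and summits. The deposited fold enrichment (a ratio) served to rank or filter peaks inside their own list. The deposited −log10 p-value and q-value were not tested, the smallest −log10 q being 1.30 to 1.42. The deposited score was not used. The lists hold no counts, so depth is unknown.

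Peaks overlapping by 1 b or more were merged. Genes, 49554 in all with 21631 protein-coding, and transcript starts came from RefSeq tables of GRCm38.p6, the mm10 assembly. The tables hold no exons and no starts on chromosome 18. Presence was tested with Fisher's exact test and width with limma 3.58.1 (R 4.3.3), both with Benjamini-Hochberg adjustment at 0.05. Other software was SciPy 1.17.1, NumPy 2.4.6, matplotlib 3.10.9 and pandas 2.3.3 under Python 3.11.15, and both tests were tested on simulated data. Coordinates are 1-based. A few named regions are not reported here.

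The regions and gene lists were chosen with earlier results of these data known. Named regions were those with the largest difference between genotypes or between a subset and the others, the widest, those highest in fold enrichment percentile, those with most CFP1 or the largest CFP1 difference, those with the largest width change, those in hosts with most regions, and up to 6 per gene list. Ties went to the higher percentile, and predicted genes were passed over. Counts of internal starts, CpG and motifs, and alternatives without the short H3K4me3 or long CFP1 lists of KO, or within 1 replicate number, were chosen after seeing the data. Alternatives were a fold enrichment of 5 or more, merging across up to 500 b, at least 2 or 6 libraries, a distance of 5 kb, each library left out in turn, a replicate block, and for width centring and the widest single peak.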

Additional observations from a re-analysis of the deposited data

Results flagged for a closer look

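The median fold enrichment percentile of intragenic regions was 32.8 in KO CCR6+ replicate 2, against 26.9, 27.2 and 27.5 in WT CCR6+ replicates 1 and 2 and KO CCR6+ replicate 1. The gap to the next library, 0.893 of the range of these 4 CCR6+ libraries, was beyond the limit for a sample far from the others. Chance gives such a gap in about 1 of 20 groups. The rule was applied to several quantities within each genotype and each subset, and this was the only value flagged. Among the KO replicate 2 libraries of all subsets the percentile ran from 29.8 to 33.7, with KO CCR6+ replicate 2 in the middle. This library also had the second longest H3K4me3 list, with 18032 peaks. The part of list length was not tested.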

How the results depend on the processing

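The 3215 regions became 2038 with peaks of fold enrichment of 5 or more and 2087 with at least 6 libraries, and 2935 to 3206 when single libraries were left out. Regions in 4 or more fewer KO libraries numbered 63, against 33 with fold enrichment of 5 or more and 36 with at least 6 libraries. Those in 4 or more additional KO libraries numbered 108, against 20 with at least 6 libraries. These counts were not recomputed without single libraries, since the rule needs all 12. The genotype and subset tests of presence gave 0 calls under every alternative run. With all 12 libraries, Fisher's exact test needed 360 regions at the smallest p for genotype and 336 for a subset. These 0 calls therefore do not show that presence was alike. CFP1 gave 745 calls without both long KO lists and 0 under the other alternatives. The KO minus WT difference in regions per library ran from −62 to 356 and in the CFP1 share from −10.6 to −2.96 percentage points when single libraries were left out. At least 6 libraries turned the difference in regions per library to −46.5. Width gave 20 calls with centring, and 0 to 1 when single libraries were left out, the 1 being without WT NKp46+ replicate 1. The cause of these differences was not tested. The deviations of same-numbered samples correlated at −0.05 to 0.25 for H3K4me3 (median 0.11) and at 0.08 to 0.43 for CFP1 (median 0.24). Since not every pair was over 0.1, the numbers were not taken as pairs, although all 15 CFP1 values were above 0. A replicate block gave 12 width calls, none intragenic (smallest intragenic adjusted p 0.0639 by limma), and 0 calls of presence. For presence this block allowed only 64 arrangements of genotype and 81 of subset, so it could not call a single region. Of 320 values for 160 named regions, 282 stayed within 1 library and 38 moved, all of them with fold enrichment of 5 or more. With fewer libraries, tested regions were in at least 2 and missing from at least 2. Depth is unknown, so absent peaks and narrow widths cannot be told from shallow sequencing.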
